A study of Homo sapiens with 7 samples.

Results

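The olfactory receptor region at the end of the long arm of human chromosome 1 (1q44) was defined as all peaks of the 7 deposited lists whose midpoint lay on chromosome 1 (build hg19) between 247.6 and 249.0 Mb, a stretch of 1.4 Mb. It held 280 of the 467188 peaks in the 7 lists, which merged into 178 separate sites where peaks that overlapped by at least 1 bp were joined. The region was chosen by its measured peaks: it was selected on the scores of the control hairpin (shCTL) FOXA1 peaks and on the absence of a peak in the SETD7 knockdown cells, holding the strongest shCTL peaks of that kind. That contrast is therefore given here as a description only. Its members were compared with the peaks on the rest of chromosome 1 after 150 Mb, which numbered 26521 in the 7 lists.

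The peaks came from chromatin immunoprecipitation sequencing of 2 established human prostate cancer lines, CWR22-Rv1 (22Rv1) and LNCaP, with 1 library in each group. In 22Rv1, FOXA1 was mapped in cells stably expressing a hairpin against SETD7 (shSETD7), in cells with a control hairpin (shCTL in the sample titles) and in vehicle cells, and SETD7 was mapped in vehicle cells. The LNCaP cells had received GSK2879552 plus PFI-2, GSK2879552 alone or DMSO for 4 hours before FOXA1 was mapped. GSK2879552 inhibits the lysine demethylase LSD1, and PFI-2 inhibits the methyltransferase activity of SETD7. The treatment label of the combination names PFI-2 ambiguously, and its title was followed. The labels do not say how many hairpins or clones were used.

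FOXA1 is a forkhead pioneer transcription factor that opens chromatin for the androgen receptor in prostate cells. SETD7 is a lysine methyltransferase that acts on histone H3 and on other proteins. Olfactory receptors are G protein-coupled receptors of the sensory neurons of the nose. Their genes stand in clusters of related copies, and most of them are silent outside the olfactory epithelium.

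The OR2T genes are 1 subfamily of this cluster. In the RefSeq table of assembly GRCh38.p14, which was used for names and neighbours only, the run of olfactory receptor genes and pseudogenes from OR2B11 to OR14I1 holds 56 entries, of which 43 are protein coding. OR2T symbols account for 17 entries, of which 15 are coding. Among coding genes OR2T2 stands between OR2T1 and OR2T3, OR2T3 between OR2T2 and OR2T5, and OR2T35 between OR2T11 and OR2T27. The assembly differs from the build of the peaks, so no peak is tied to a gene here and the distance from any peak to these genes was not analysed here.

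RefSeq promoter sequences (GRCh38.p14, from 250 bases before a gene's start to 50 bases after it) were matched by symbol for 2 of the 3 genes named by the rule, OR2T2 (chr1:248445387-248445686, + strand) and OR2T35 (chr1:248645229-248645528, − strand). They are shown because the region is named for these genes, together with OR2T8 (chr1:247920002-247920301, + strand) and OR2T1 (chr1:248402798-248403097, + strand), the 2 of 12 OR2T promoters in the table that hold the forkhead core searched, TGTTTAC or TATTTAC on either strand. Each is written 5′ to 3′ on the gene's strand, and capitals mark that core.
OR2T2: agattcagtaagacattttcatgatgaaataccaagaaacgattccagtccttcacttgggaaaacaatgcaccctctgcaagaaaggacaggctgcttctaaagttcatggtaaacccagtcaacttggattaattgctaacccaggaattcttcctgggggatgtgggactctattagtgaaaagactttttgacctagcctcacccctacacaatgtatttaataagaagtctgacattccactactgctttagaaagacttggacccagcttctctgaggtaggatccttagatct
OR2T35: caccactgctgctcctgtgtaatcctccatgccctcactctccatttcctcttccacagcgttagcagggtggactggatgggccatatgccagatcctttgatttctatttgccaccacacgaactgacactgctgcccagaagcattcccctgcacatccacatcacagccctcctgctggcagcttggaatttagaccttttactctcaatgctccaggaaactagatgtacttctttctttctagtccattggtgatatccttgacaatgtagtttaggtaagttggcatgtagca
OR2T8: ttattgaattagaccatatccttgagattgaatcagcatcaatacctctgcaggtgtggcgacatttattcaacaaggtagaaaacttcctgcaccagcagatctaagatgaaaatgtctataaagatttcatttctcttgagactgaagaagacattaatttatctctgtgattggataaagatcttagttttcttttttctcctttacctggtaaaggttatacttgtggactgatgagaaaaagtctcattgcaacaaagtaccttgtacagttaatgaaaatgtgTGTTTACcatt
OR2T1: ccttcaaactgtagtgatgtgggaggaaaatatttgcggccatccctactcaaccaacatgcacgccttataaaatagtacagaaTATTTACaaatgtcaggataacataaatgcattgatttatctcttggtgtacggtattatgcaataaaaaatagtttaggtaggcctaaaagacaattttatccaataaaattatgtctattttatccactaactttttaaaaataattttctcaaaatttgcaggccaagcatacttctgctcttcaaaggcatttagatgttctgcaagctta
The core was found in 4 of 37 promoters of the run (10.8%) and in 2098 of all 35116 promoters of the table (5.97%). A match is a description of letters and not a binding site, and OR2T2 and OR2T35 have no match in the window shown.

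The 7 lists filled the region very unequally. FOXA1 peaks numbered 64 in the shSETD7 list, 48 in the shCTL list and 31 in the vehicle list of 22Rv1, and 10 in each of the LNCaP lists with GSK2879552 plus PFI-2, with GSK2879552 and with DMSO. SETD7 peaks of vehicle 22Rv1 cells numbered 107. Of the 178 merged sites, 123 were found in 1 list only (69.1%), against 57.3% of the sites on the rest of chromosome 1 after 150 Mb and 43.9% in the whole series. All 6 FOXA1 lists shared 2 sites (1.12%), against 5.63% on the rest and 7.53% in the whole series. With 10 peaks in each LNCaP list, at most 10 sites of the region could be in all 6. These totals also include sites with SETD7 alone. No site was in all 7 lists, which was rare elsewhere too, at 0.251% on the rest and 0.21% in the whole series. SETD7 peaks alone made up 76 of the sites (42.7%), against 25.2% on the rest and 10.7% in the whole series. They were thus 76 of the 123 sites found in 1 list only.

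The region was dense in SETD7 peaks and sparse in LNCaP FOXA1 peaks. SETD7 peaks numbered 76.4 per Mb in the region and 42.5 per Mb on the rest of chromosome 1 after 150 Mb, a ratio of 1.8. None of 69 consecutive stretches of the same length between 150 Mb and the region held more SETD7 peaks, and the highest of them held 101. LNCaP FOXA1 peaks were sparse, with 7.14 per Mb in the region in each list, against 32.8 per Mb with the combination, 25.2 with GSK2879552 and 31.4 with DMSO on the rest of chromosome 1. Of the 69 stretches, 68 held more peaks than the region with the combination, 67 with GSK2879552 and 68 with DMSO. In 22Rv1 the FOXA1 density of the region was 0.949 times that of the rest for shSETD7, 0.668 times for shCTL and 0.558 times for vehicle. More peaks were held by 44 of the 69 stretches for shSETD7, by 62 for shCTL and by 65 for vehicle, so the shSETD7 density was within the usual range of the chromosome. Lists differ in unknown depth, so only ratios within a list are compared here.

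**Figure D1:**
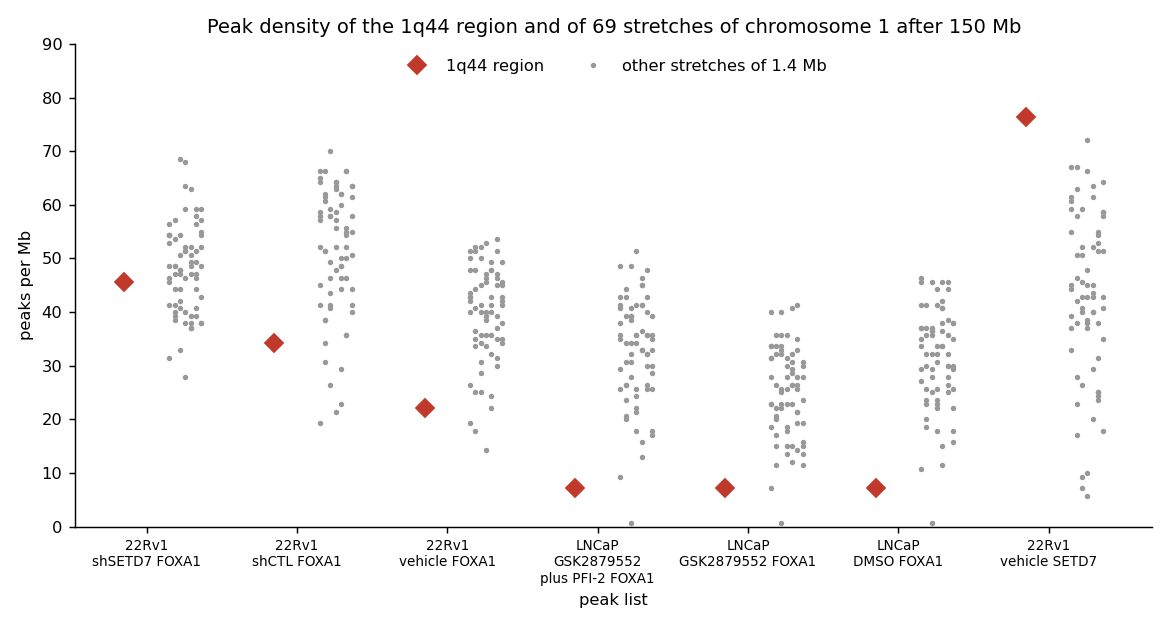
Peaks per Mb (vertical axis) in each of the 7 lists, for the 1q44 region (red diamonds) and for 69 stretches of the same length on chromosome 1 after 150 Mb (grey dots). The region had the highest SETD7 density, 76.4 per Mb, and LNCaP densities of 7.14 per Mb near the bottom of their range.

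The deposited score of a peak is the authors' own value, and it was used only for its percentile within its list, where 100 is the highest score. The median percentile of the region's peaks was 20.1 in the shSETD7 list, against 38.4 on the rest of chromosome 1 after 150 Mb. It was 41.2 against 46.4 for shCTL, 55.9 against 50.3 for vehicle FOXA1 and 70.9 against 58.1 for SETD7. In the shSETD7 list 53 of the 64 peaks (82.8%) were in its lower-scoring 50%, against 60.9% on the rest of chromosome 1, while the share in its top-scoring 10% was 7.81%, against 8.15% on the rest. SETD7 scores in the region ran from 13 to 119, in a list with a median score of 28 that reaches 116716 elsewhere. Of the region's SETD7 peaks 8.41% were in the top-scoring 10% of that list, against 7.71% on the rest.

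**Figure D2:**
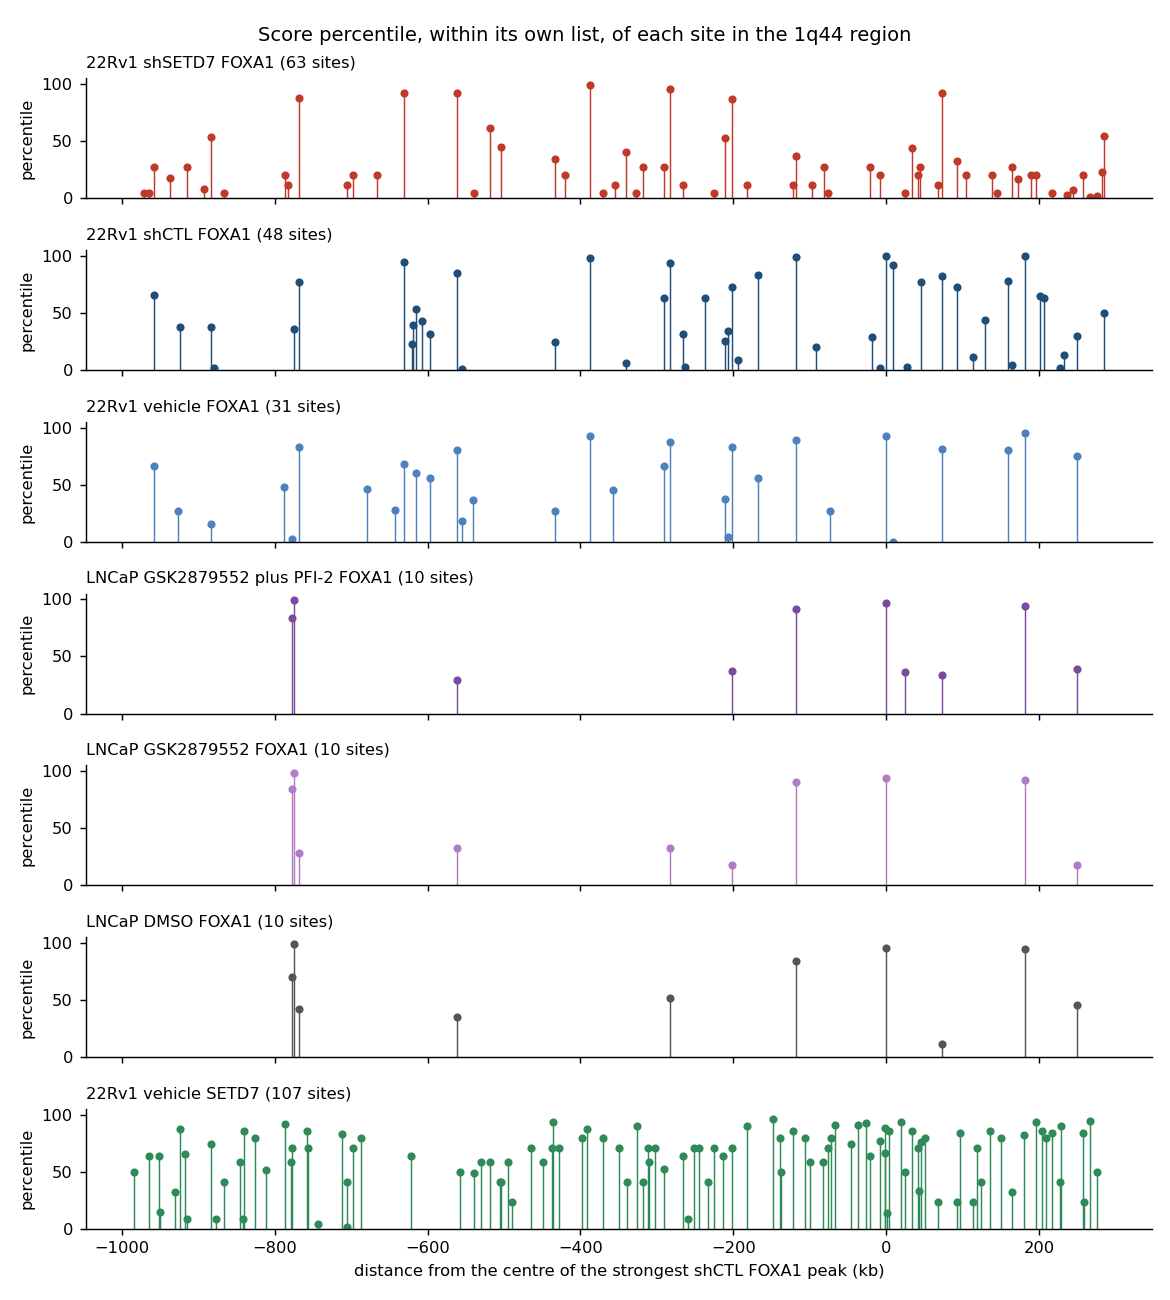
Score percentile within the list (vertical axis, 0 to 100) of every merged site in the 1q44 region, against its distance in kb from the centre of the strongest shCTL FOXA1 peak, with 1 panel per list. The tall stems at 0 and 181.6 kb stand in the shCTL, vehicle and all 3 LNCaP panels and have no counterpart in the shSETD7 panel.

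FOXA1 peaks of the region after SETD7 knockdown were then described. Of the 48 shCTL peaks, 18 overlapped an shSETD7 peak (37.5%, 95% Wilson interval 25.2 to 51.6) and 30 did not. In the whole shCTL list 55.5% had no shSETD7 peak, and on the rest of chromosome 1 after 150 Mb 44.4% had one (43.0 to 45.8). The interval of the region includes that value. Since the region was selected on this contrast, nothing is read from the comparison. The intervals cover counting error only.

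The region was selected on the high rank of some shCTL peaks without an shSETD7 peak, and their values are given as a description. The strongest was at chromosome 1 from 248618252 to 248618812, with a score of 14511, rank 34 of 83994 in the shCTL list. The next, from 248799846 to 248800424, scored 11164, rank 71. They lay 181.6 kb apart, and their scores were 3.3 and 2.54 times that of the third strongest shCTL peak of the region. The nearest shSETD7 peaks were 8.31 kb and 7.29 kb away. Genes of this cluster are related copies, and whether both shCTL peaks lie in copies of the same sequence was not tested. How reads that match several places were treated is not stated. Its part in the scores and in the lack of an shSETD7 peak was not tested, so these shCTL peaks are not read as independent.

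Both sites were also among the strong FOXA1 peaks of the vehicle list and of the 3 LNCaP lists. At the first site the percentile was 99.96 with shCTL, 93.0 with vehicle, 97.1 with GSK2879552 plus PFI-2, 94.3 with GSK2879552 and 95.8 with DMSO. At the second site it was 99.92 with shCTL, 94.9 with vehicle, 94.1 with GSK2879552 plus PFI-2, 92.0 with GSK2879552 and 94.7 with DMSO. In the vehicle list they were the 2 highest scores of the region, at 587 for the second site and 477 for the first. Neither overlapped a SETD7 peak, but the nearest SETD7 peaks lay 0.961 kb and 0.917 kb away.

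The third strongest shCTL peak, from 248499680 to 248500137, was present in all 6 FOXA1 lists, with unlike ranks. Its percentile was 37.4 in the shSETD7 list, against 99.05 in the shCTL list and 89.1 in the vehicle list. In LNCaP it was 91.7 with GSK2879552 plus PFI-2, 90.1 with GSK2879552 and 84.2 with DMSO. Ranks from lists of different lengths do not measure a change in binding, so these values only show where the peak stood in each list.

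Other strong shCTL peaks stood high in the shSETD7 list as well. The peak from 248231020 to 248231493 was at percentile 98.9 in the shSETD7 list, 98.3 in shCTL and 92.8 in vehicle, and was the highest shSETD7 score of the region, at 3416. The peak from 248335194 to 248335695 was at percentile 96.0 in shSETD7, 94.0 in shCTL and 87.6 in vehicle. The peak from 247987366 to 247987802 was at 92.2 in shSETD7, 94.4 in shCTL and 68.4 in vehicle. In the top-scoring 10% of the shCTL list, the 4 peaks with an shSETD7 counterpart all lay at lower coordinates, up to 248500137, than the 3 without one, which began at 248618252. Below that score the order was mixed, with a peak without a counterpart at 248450164 and a peak with one at 248691568. The region was selected for strong peaks without a counterpart, and the split was seen in the data, so nothing is read from it.

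Of the 10 highest shCTL scores in the region, 6 had an shSETD7 peak within 1 kb and 4 had none. The region was selected on the 2 strongest of these 4, so nothing is read from that count. All 10 overlapped a vehicle peak. Of the 10, 7 were in the top-scoring 10% of the shCTL list. In that class over the whole list, 96.0% overlapped a vehicle peak and 19.5% had no shSETD7 peak within 1 kb. The remaining absent sites were those from 248626929 to 248627618 and from 248450164 to 248450616. The peak from 248626929 to 248627618 was at percentile 92.0 with shCTL and 0.254 with vehicle, so the 22Rv1 control lists themselves ranked it differently. The peak from 248450164 to 248450616 was at 83.0 with shCTL and 55.9 with vehicle. The other 2 of the 10, present in both lists, were those from 248056971 to 248057350 and from 248691568 to 248691962, at percentiles 92.4 and 92.2 with shSETD7 and 85.4 and 82.1 with shCTL.

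In the top-scoring 10% of the shCTL list, 3 of the region's 7 peaks had no shSETD7 peak within 1 kb. Over the whole shCTL list this was 19.5% of such peaks, and on the rest of chromosome 1 after 150 Mb 76 of 492 (15.4%, 12.5 to 18.9). The interval for 3 of 7 runs from 15.8% to 75.0%. Since the region was picked for these peaks, the excess is no result. With an overlap of at least 1 bp the same 3 of 7 were absent, against 21.6% in the whole list.

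**Figure D3:**
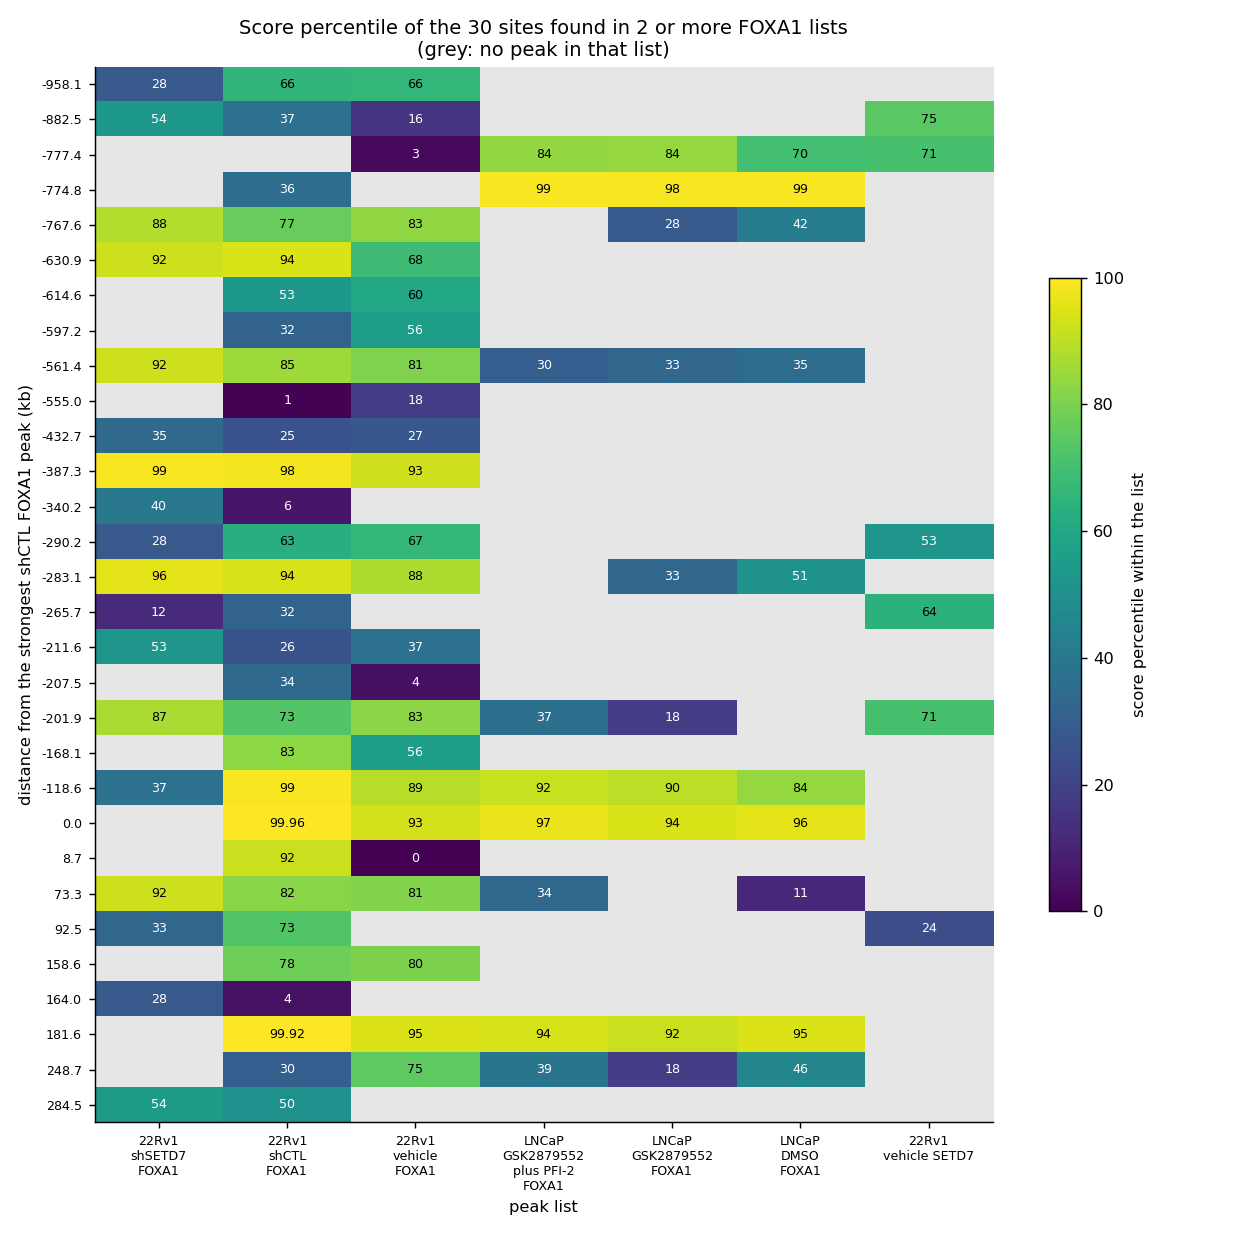
Score percentile within each list (colour and printed number, 0 to 100) of the 30 sites of the 1q44 region found in 2 or more FOXA1 lists, ordered by distance in kb from the strongest shCTL FOXA1 peak, with grey for no peak. The rows at 0.0 and 181.6 kb are high in every FOXA1 list but shSETD7, and the row at −387.3 kb is high in the 22Rv1 FOXA1 lists and empty in LNCaP.

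The vehicle list showed how far 2 control libraries differed in the region. Of the 48 shCTL peaks, 23 overlapped a vehicle peak (47.9%, 34.5 to 61.7), against 51.2% on the rest of chromosome 1 after 150 Mb (49.8 to 52.6). In the whole shCTL list 48.7% lacked a vehicle peak. In the top-scoring 10% of the shCTL list all 7 had a vehicle peak, as did 95.5% of such peaks on the rest of chromosome 1 and 96.0% in the whole list. Of the 23 sites shared by shCTL and vehicle, 13 were also shSETD7 sites and 10 were not, a split not computed for other stretches. The shCTL peaks with an shSETD7 peak had a median score of 267 and those without one a median of 91. Of the 30 without one, 20 were in the lower-scoring 50% of the list, unlike the 2 strongest sites. That was much as elsewhere, with 1936 of 2791 on the rest of chromosome 1 and 29937 of 46581 in the whole list.

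Of the 64 shSETD7 peaks in the region, 18 overlapped an shCTL peak (28.1%, 18.6 to 40.1), against 47.0% on the rest of chromosome 1 after 150 Mb (45.6 to 48.4) and 58.2% in the whole list, where 41.8% lacked one. All 5 peaks in the top-scoring 10% of the shSETD7 list overlapped an shCTL peak, as did 99.7% of such peaks on the rest of chromosome 1 and 99.1% in the whole list. The highest shSETD7 score without an shCTL peak within 1 kb was 122, from 248100017 to 248100880, at percentile 61.43. The next were from 248115059 to 248115397 and from 248651980 to 248652653, with scores of 72 and 70. Both overlapped SETD7 peaks of vehicle cells, and the peak with a score of 122 lay 0.136 kb from one.

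SETD7 peaks overlapped FOXA1 peaks of the shSETD7 list more often than those of the control lists, in the region as in the whole list. Of the 107 SETD7 peaks, 28 overlapped an shSETD7 FOXA1 peak (26.2%, 18.8 to 35.2), 4 an shCTL peak (3.74%, 1.46 to 9.22), 3 a vehicle FOXA1 peak (2.8%, 0.958 to 7.92) and 1 an LNCaP DMSO peak (0.935%, 0.165 to 5.1). In the whole SETD7 list these shares were 15.5%, 7.89%, 5.86% and 2.58%. On the rest of chromosome 1 after 150 Mb they were 18.7% (17.5 to 19.9), 5.07%, 3.75% and 1.42%, and the intervals of the region include or meet each of them. At 23 of the 178 merged sites SETD7 and shSETD7 FOXA1 were the only lists present, a share not computed for other stretches.

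Seen from the FOXA1 side, 29 of the 64 shSETD7 peaks overlapped a SETD7 peak (45.3%, 33.7 to 57.4). On the rest of chromosome 1 after 150 Mb it was 16.5% (15.5 to 17.6), and in the whole list 6.24%. In the lower-scoring 50% of the shSETD7 list the share was 27 of 53 in the region (50.9%, 37.9 to 63.9), against 20.9% on the rest of chromosome 1 (19.4 to 22.4) and 7.56% in the whole list. The intervals of the region and the rest did not meet. Of the 48 shCTL peaks 4 overlapped a SETD7 peak (8.33%, 3.29 to 19.6), against 4.2% on the rest of chromosome 1 and 2.47% in the whole list. SETD7 peaks were denser in the region, as given above, and wider, with a median of 406 bp against 325 bp on the rest of chromosome 1, and the part of density and width in these shares was not tested.

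The shSETD7 peaks of the region fell into 3 kinds. At a control FOXA1 peak (shCTL or vehicle) there were 18, with a median score of 92.5 and a highest of 3416. At a SETD7 peak without a control FOXA1 peak there were 24 (37.5%, 26.7 to 49.7), with scores of 13 to 72 and a median of 27. At neither there were 22, with a median of 30. The middle kind made up 11.6% of the shSETD7 peaks on the rest of chromosome 1 after 150 Mb (10.8 to 12.6) and 3.39% in the whole list. The median percentile of these 24 peaks was 12.0 in the shSETD7 list, in which the lowest score was 13 and the median score 82.

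**Figure D4:**
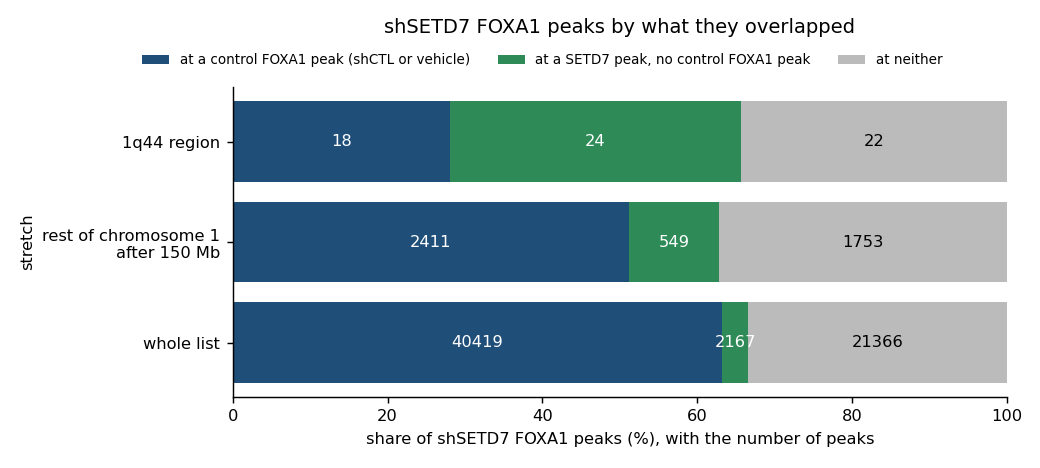
Share (%) of shSETD7 FOXA1 peaks, with numbers of peaks in the bars, that overlapped a control FOXA1 peak (blue), a SETD7 peak but no control FOXA1 peak (green) or neither (grey). The green part is 37.5% in the 1q44 region, 11.6% on the rest of chromosome 1 after 150 Mb and 3.39% in the whole list.

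None of the 10 highest shCTL scores overlapped a SETD7 peak, which allows a share of up to 30% when the limit is set at 3 counts of the total. Only 7 of those 10 were in the top-scoring 10% of the shCTL list. In that class such overlaps were also rare elsewhere, at 4.67% on the rest of chromosome 1 and 2.94% in the whole list. The count of 0 thus does not set the region apart. The highest SETD7 score of the region, 119 from 248468966 to 248470285, overlapped no FOXA1 peak, nor did the third, 79 from 248637084 to 248637622. The second, 83 from 248884977 to 248885416, overlapped an shSETD7 FOXA1 peak with a score of 13. Of the 10 highest SETD7 scores at a FOXA1 peak, the others included 74 from 248813386 to 248814176 and 66 from 247831502 to 247831796, both at shSETD7 peaks with a score of 35. The fifth, 53 from 247694289 to 247694533, was at an shCTL peak with a score of 97. In all, 31 SETD7 peaks (29.0%) overlapped at least 1 FOXA1 peak of any list, against 20.5% on the rest of chromosome 1 after 150 Mb.

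In LNCaP each list had 10 peaks in the region. Of the 10 DMSO peaks, 8 overlapped a peak of GSK2879552 plus PFI-2 (80.0%, 49.0 to 94.3) and 9 a GSK2879552 peak (90%, 59.6 to 98.2). On the rest of chromosome 1 after 150 Mb these shares were 88.5% and 72.3%, and in the whole DMSO list 11.4% lacked a peak of the combination and 28.8% lacked a GSK2879552 peak. The 3 lists together gave 12 sites, 7 of them in all 3 (58.3%), against 58.8% of the LNCaP sites on the rest of chromosome 1 and 57.8% in the whole series. Neither share could be told from that of the rest at this number of peaks.

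The 5 sites that were not in all 3 LNCaP lists had percentiles of 51.3 or lower in the LNCaP lists that held them. The DMSO peak without a GSK2879552 peak, from 248691685 to 248691892, had a score of 100 (percentile 11.0), and the site was at percentile 33.7 with the combination. The GSK2879552 peak without a DMSO peak, from 248416564 to 248416741, had a score of 121 (percentile 18.07), and the site was at percentile 37.0 with the combination. In the whole lists 10.4% of the GSK2879552 peaks lacked a DMSO peak. The site from 248642122 to 248642402 was found with the combination only, at percentile 36.2. Of the 2 DMSO peaks without a combination peak, those in the sites from 247850746 to 247851133 and from 248335188 to 248335774, percentiles were 42.3 and 51.3 with DMSO and 28.4 and 33.1 with GSK2879552.

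The strongest LNCaP peak of the region was a weak one in 22Rv1. The site from 247843457 to 247844003 was at percentile 99.0 with GSK2879552 plus PFI-2, 98.5 with GSK2879552 and 98.9 with DMSO. In 22Rv1 it was absent from the shSETD7 and vehicle lists and at percentile 35.8 in the shCTL list. The neighbouring site from 247840823 to 247841375 was at 83.8 with the combination, 84.2 with GSK2879552 and 70.2 with DMSO, and in 22Rv1 it was found with vehicle at 2.57 and with SETD7 at 70.9.

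The LNCaP sites were mostly 22Rv1 sites. The reverse could hardly hold, with 10 peaks in the DMSO list against 48 in the shCTL list. Of the 10 DMSO peaks 9 overlapped an shCTL peak (90%, 59.6 to 98.2), against 59.0% on the rest of chromosome 1 after 150 Mb (57.2 to 60.7) and 47.8% in the whole list. Of the 48 shCTL peaks 9 overlapped a DMSO peak (18.8%, 10.2 to 31.9), against 35.7% on the rest of chromosome 1 (34.4 to 37.0) and 45.2% in the whole list. With 10 DMSO peaks in the region, a share near that of the rest was hardly within reach for 48 shCTL peaks. The low share and its interval thus restate the sparse LNCaP peaks, and nothing more is read from them. The intervals of the region and the rest did not meet for the shCTL peaks. They did meet for the higher-scoring 50% of each list (18.2%, 7.31 to 38.5, against 37.9%, 36.0 to 39.9). They also met with the vehicle list in place of shCTL, chosen after seeing the data (29.0%, 16.1 to 46.6, against 38.6%, 37.1 to 40.2). In the top-scoring 10% of the shCTL list 4 of 7 had a DMSO peak, against 403 of 492 on the rest of chromosome 1 and 87.1% in the whole list. Among the 102 merged sites with a FOXA1 peak, 90 were 22Rv1 FOXA1 sites with no LNCaP peak. That share was not computed for other stretches, so nothing is read from it.

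**Figure D5:**
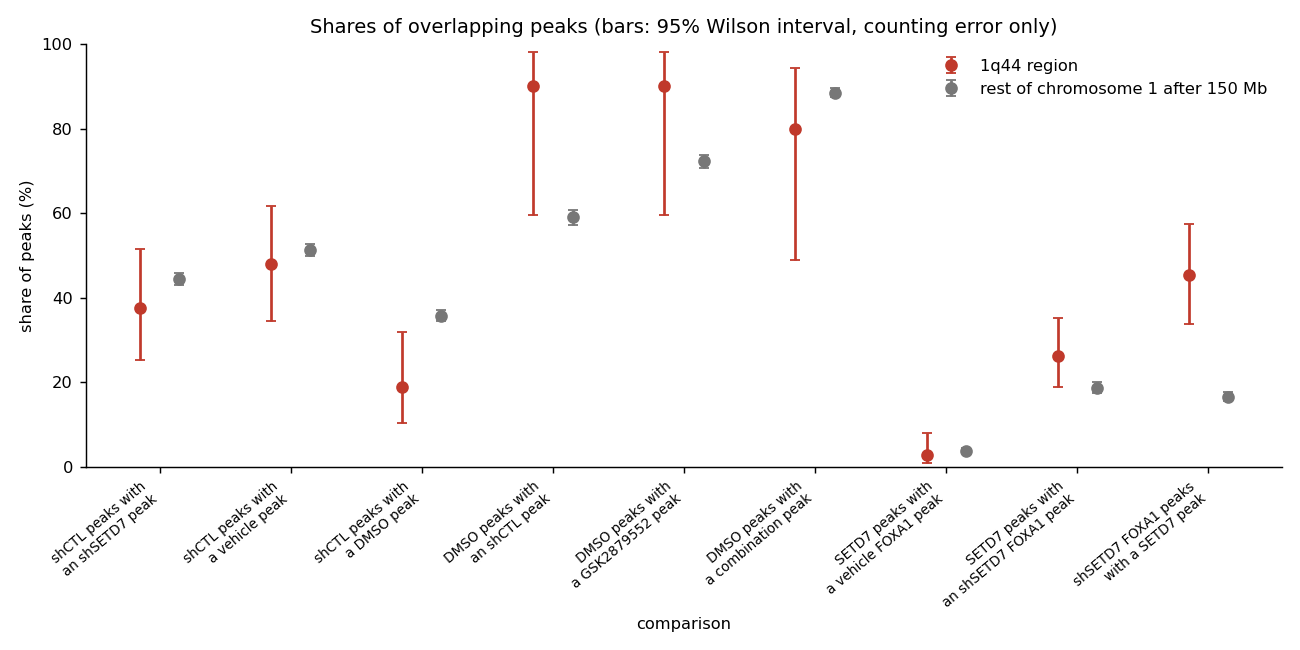
Share (%) of peaks of 1 list with an overlapping peak in another, for 9 comparisons, in the 1q44 region (red) and on the rest of chromosome 1 after 150 Mb (grey), with 95% Wilson intervals for counting error. The clearest separation is for shSETD7 FOXA1 peaks with a SETD7 peak, 45.3% in the region and 16.5% on the rest.

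The strongest sites of the shSETD7 and DMSO lists in the region were compared as a description only. The 5 peaks in the top-scoring 10% of the shSETD7 list were at DMSO percentiles of 51.3, 35.2 and 11.0 at 3 sites and at no DMSO peak at the other 2. The 3 DMSO peaks in the top-scoring 10% of that list had no shSETD7 peak, but 2 of them are the shCTL sites on whose lack of an shSETD7 peak the region was selected, so that count is largely set by the choice of the region and nothing is read from it.

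Peaks just inside and just outside the borders were as follows. At the lower border the nearest shCTL peak outside was from 247536090 to 247536426 (score 84) and the first inside from 247660188 to 247660615 (score 231). At the upper border the last shCTL peak inside was from 248902890 to 248903166 (score 137) and the first outside from 249101272 to 249101609 (score 402). No list had a peak in the last 96.8 kb of the region, nor beyond it up to 249101204. Whether this stretch can hold peaks in build hg19 was not tested, so nothing is read from their absence. The densities per Mb of the region include its part of the stretch.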

How the data were processed

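Each library gave 1 deposited peak list on build hg19, in which every peak has a whole-number score made by the authors. The submitters' processing notes name BWA 0.7.17-r1188, MACS2 2.1.4, SAMtools 1.9 and FastQC 0.11.9. What each did, the peak threshold, any input control and the meaning of the score are not stated there. Read depth is unknown, and peak number may follow depth or enrichment. With 1 library per group there was no replicate error and no test between conditions. The tag siNTC, absent from the labels, stands in all 65461 names of the FOXA1 list called vehicle here, so that name rests on its label alone.

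Peaks of chromosomes 1 to 22, X and Y entered. Percentiles are ranks of the score within a list, with ties at their mean rank, and the top-scoring 10% lies above percentile 90. Sharing means an overlap of at least 1 bp unless a gap of up to 1 kb is named. Intervals are 95% Wilson intervals. Sites were named by rule, as the 10 highest shCTL scores, the 3 highest scores of each list, the highest of each class of difference, and SETD7 peaks at FOXA1 peaks. Other sites in the text were chosen after their values were seen. The region, its members and all lists were chosen with earlier results of these data known. Results were recomputed with other overlap rules, with only the higher-scoring 50% of peaks, with lists cut to equal size, with moved borders, with the whole list for comparison and, chosen after seeing the data, with the 22Rv1 control lists exchanged. The overlap code was tested on simulated intervals. Tools were bedtools 2.31.1 and Python 3.11.15 with matplotlib 3.10.9, scipy 1.17.1, pandas 2.3.3 and numpy 2.4.6.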

Additional observations from a re-analysis of the deposited data

How the results depend on the processing

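Of 67 alternatives run over 13 results, 37 stayed inside the interval of the reported value (or, for the number of sites, within 1.5 times) and 30 did not, 5 of them in the region. No paired analysis was possible because each group has 1 library. In the region, shCTL peaks with an shSETD7 peak (37.5%) came to 25% with reciprocal 50% overlap, and shCTL peaks with a vehicle peak (47.9%) to 68.2% in the higher-scoring 50% of each list. DMSO peaks with a GSK2879552 peak (90%) came to 100% with equal-sized lists. SETD7 peaks with a vehicle FOXA1 peak (2.8%) came to 0.0% with reciprocal overlap and 0.935% with equal-sized lists. Joining peaks across gaps of up to 1 kb gave 153 sites in place of 178. Moving both borders inward by 200 kb leaves out the second strongest shCTL site and gave 40.5% of shCTL peaks with an shSETD7 peak.

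On the rest of chromosome 1 after 150 Mb, reciprocal overlap, a gap of 1 kb, the higher-scoring 50% and equal-sized lists gave, in that order, 36.5%, 50.2%, 52.6% and 53.0% for shCTL peaks with an shSETD7 peak, 43.8%, 55.1%, 58.7% and 62.9% for shCTL with vehicle, 31.7%, 39.5%, 37.9% and 37.5% for shCTL with DMSO, and 0.721%, 10.3%, 2.11% and 1.51% for SETD7 with vehicle FOXA1. DMSO peaks with GSK2879552 came to 68.1%, 73.9% and 82.3% with reciprocal overlap, a gap of 1 kb and equal-sized lists, and with the combination to 87.3% and 86.4% with reciprocal overlap and equal-sized lists. The whole list outside the region gave 45.2% for shCTL with DMSO and 5.88% for SETD7 with vehicle FOXA1. With exchanged 22Rv1 lists, 38.6% of vehicle peaks had a DMSO peak and 5.07% of SETD7 peaks an shCTL peak. The cause was not tested beyond what each rule does by construction. Depth, unknown here, limits every share, and 10 LNCaP peaks per list leave wide intervals.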

Other observations

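Within the region the lists were spread differently over windows of 200 kb. SETD7 peaks were most frequent from 248.6 to 248.8 Mb, with 22, and the shSETD7 and shCTL lists also had their highest counts there, 13 and 11. The vehicle FOXA1 list had 4 peaks in that window and 6 in each of the windows from 247.8, 248.0 and 248.4 Mb. From 247.6 to 247.8 Mb no LNCaP list had a peak, while the 22Rv1 FOXA1 lists held 8 (shSETD7), 4 (shCTL) and 3 (vehicle).

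Over the whole shCTL list outside the region, peaks in the top-scoring 10% lacked an shSETD7 peak in 20.2% of 3382 cases with a DMSO peak in the top-scoring 10% of its list (18.8 to 21.6) and in 25.4% of 1083 cases without a DMSO peak (22.9 to 28.1). The classes between, with a DMSO peak at percentile 50 to 90 or in the lower-scoring 50%, gave 22.4% (20.9 to 23.9) and 19.6% (17.2 to 22.3). The share thus did not rise steadily as the DMSO peak ranked lower. On the rest of chromosome 1 after 150 Mb the 2 outer classes gave 20.1% of 164 (14.7 to 26.9) and 19.1% of 89 (12.3 to 28.5), with 15.3% and 12.9% between. Over the whole list outside the region the outer classes lacked a vehicle peak in 1.12% (0.82 to 1.54) and 13.9% (12.0 to 16.1), with 2.91% and 6.13% between.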
